A study of Mus musculus with 380 samples.

Results

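CD4 T cells that had entered B16F10 melanomas were compared between a plate labelled as Il27ra knockout and a wild-type (WT) plate. B16F10 is a transplantable mouse melanoma line, and the tumour-bearing mice were C57BL/6. Il27ra encodes the ligand-specific subunit of the receptor for interleukin-27 (IL-27), and no further allele, agent or treatment is named for either group. Cells were taken from the 2 CD4 plates by their titles and kept with at least 1000 genes above 1 FPKM (reads counted per length of transcript and per depth of library). This left 73 of 94 cells on the KO-labelled plate and 79 of 94 on the WT plate, which are 50% of the cells kept over the 4 plates of the series. The other plates hold CD8 cells, with 80 KO-labelled and 72 WT cells kept. One well of each plate held a bulk population, and its library gives a second view of the same plate. RNA was read by Smart-seq2, a protocol that amplifies full-length cDNA from single cells. The titles carry 1 code per genotype and do not say whether it names an animal. The WT CD4 titles carry p2 where the other plates carry p1. Genotype, plate and animal therefore cannot be told apart here, no test was made, and every value describes these plates. The treatment protocol speaks of CD8+ cells only, so the CD4 lineage rests on the titles and on the lineage genes below.

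IL-27 is a cytokine of the IL-6 and IL-12 family that signals through IL27RA and gp130 to JAK kinases and STAT factors, and in T cells it is known for inducing interferon-type genes and several inhibitory receptors. CD4 cells in tumours include regulatory T cells, which carry the factor FOXP3 and the high-affinity IL-2 receptor chain CD25 (Il2ra), and effector and memory-like helper cells. Cytokine signals through STAT5 switch on their own inhibitors, among them Cish and the Socs genes. Antigen receptor and stress signals switch on the immediate-early genes within minutes, including the FOS, EGR and NR4A factors.

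Transcripts of the targeted gene Il27ra were found on both plates: KO-labelled cells held it in 47.9% (95% interval 36.1 to 59.96), WT cells in 43.04% (95% interval 31.9 to 54.7). Its values ran from 0 through a median of 0 to 536 FPKM in KO-labelled cells, and from 0 through 0 to 1207 FPKM in WT cells. The wells held 72.7 against 243.4 FPKM, so the lower value on the KO-labelled side was seen in the wells and not in the cells, where the difference was 0.09. Gene-level values do not show which exons were read, and the groups are called KO-labelled and WT throughout. Kept KO-labelled cells had a median of 2218 detected genes (1302 to 5961) and kept WT cells 2045 (1023 to 6578), while the nearest cells left out had 774 and 983. Cd4, the helper coreceptor, was detected in 84.9% against 89.9% of cells, Cd8a in 4.11% against 5.06%, and at least 1 of Cd3e, Cd3d and Cd3g in 95.9% against 98.7%. The lineage genes matched the CD4 titles of both plates, and the KO-labelled side is given first in every pair of values. Cells with at least 3 macrophage or monocyte markers made up 8.22% against 6.33%, and cells with at least 3 dendritic cell markers 9.59% against 2.53%. The wells differed far more: the 12 macrophage and monocyte markers summed to 4767 against 299.4 FPKM and the 12 dendritic cell markers to 6917 against 209.1 FPKM, while C1qa and C1qc were at 0 in both wells. The part of these cells in the results was not tested except where values without them are given.

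Each gene was compared by its mean log2(FPKM + 1) over kept cells, KO label minus WT, and by the same difference between the wells. Between wells a value of 1 is a doubling for well-expressed genes and understates the fold of low ones. Over cells the value also reflects how many cells are at 0, so it is not a fold of mean FPKM. For Foxp3 a difference of 1.95 over cells went with means of 464.6 against 348.6 FPKM, and for Gadd45b 4.07 went with 1393 against 281.9 FPKM. Detected means above 1 FPKM. Among 4687 genes detected in at least 20% of the cells of 1 plate, 410 (8.75%) were higher by at least 1 on the KO-labelled plate and 71 (1.51%) were lower. At any size, 62.5% were higher and 37.5% lower. The median gene differed by 0.16 over cells and by -0.02 between wells. The split between higher and lower genes varied with the cells and scale used. Over 63 pairs of cells matched on genes detected 5.12% were higher by at least 1 and 4.35% lower, and among cells with at least 2000 genes 7.16% and 6.49%. Without cells above 4000 genes the shares were 9.29% and 2.15%, and with all cells of at least 500 genes 8.78% and 1.08%. They were 5.57% and 3.09% after centring on the median gene, 7.98% and 4.82% from the log of mean FPKM, and 18.8% and 5.25% with a pseudocount of 0.1. Between the wells, 7.17% of genes were higher by at least 1 and 5.21% were lower. Only 69 genes (1.47%) were higher by at least 1 in both views, and 8 (0.171%) were lower in both. Of the 410 genes higher over cells, 62.7% were higher at all between wells, and of the 71 lower genes 73.2% were lower at all. Values from both views are therefore given for many genes, and a single difference given without its view is over cells. The genes with the largest differences in both were Ier2, H60b, Lilrb4, Gzmb, Cst3 and Socs1 on the higher side and Ccr7, Gtf2i, Ppm1j and Sidt1 on the lower side.

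**Figure D1:**
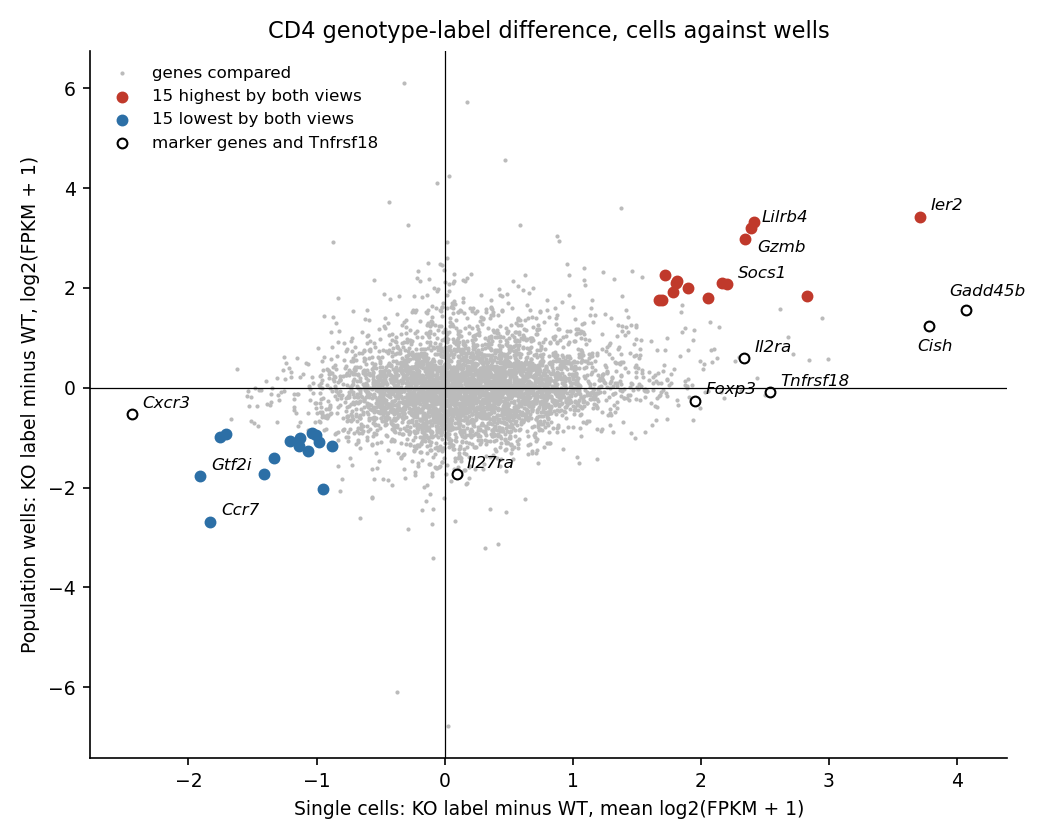
Difference between the KO-labelled and WT CD4 plates for 4687 genes, over single cells (horizontal axis, difference of mean log2(FPKM + 1)) and between the population wells (vertical axis, difference of log2(FPKM + 1)). Each grey point is a gene, red and blue points are the 15 highest and 15 lowest by both views, and open circles are marker genes. Ier2 lies far to the upper right at 3.71 and 3.43, while Cxcr3 is lowest over cells at -2.44 and Foxp3 lies right of zero but just below it in the wells at -0.26.

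Several feedback regulators of cytokine and stress signalling were higher on the KO-labelled plate, with Gadd45b and Cish among the largest differences over cells. Gadd45b, a stress sensor that binds kinases of the p38 pathway (chr10:80930073-80932204, plus strand, GRCm38), ran from 0 through a median of 672 to 5899.8 FPKM in KO-labelled cells, and from 0 through 0 to 2394 FPKM in WT cells. KO-labelled cells held it in 73.97% (95% interval 62.4 to 83.5), WT cells in 37.97% (95% interval 27.3 to 49.6), and the wells held 1452 against 496 FPKM. The difference was 4.07 over cells and 1.55 between wells, and although the ranges of the cells overlapped, most WT cells were at 0. Cish, an SH2 protein induced by STAT5 that dampens IL-2 and T cell receptor signals (chr9:107296026-107302784, plus strand), ran from 0 through a median of 754 to 4084 FPKM in KO-labelled cells, and from 0 through 0 to 2497 FPKM in WT cells. Its share of cells was 76.7% (95% interval 65.4 to 85.8) against 40.5% (95% interval 29.6 to 52.1), its wells held 1224 against 521 FPKM, and it differed by 3.78 over cells and 1.23 between wells. Both genes kept this order in matched cells, with shares of 74.6% against 42.9% for Gadd45b and 74.6% against 46.03% for Cish. Among cells with at least 2000 genes the shares were 77.1% against 60.98% and 85.4% against 51.2%. The pair was found together in 57.5% (45.4 to 69.03) against 25.3% (16.2 to 36.4) of cells. Socs1, which blocks JAK kinases downstream of interferon and IL-2 receptors, was detected in 61.6% against 34.2% of cells, and its wells held 154.3 against 35.7 FPKM. It was among the genes higher in both views, at 2.21 over cells and 2.08 between wells.

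The list of STAT5 and cytokine feedback targets had 17 measured members, meaning detected in at least 10% of the cells of 1 plate. Among all 7440 measured genes, 59.3% were higher at all over cells and 40.7% lower, 5.56% were higher by at least 1 and 0.954% lower by at least 1, with a median of 0.09. Between the wells 48.1% of them were higher at all and 51.3% lower. These shares are the reference for every count of list members below. In the list 13 members were higher, 8 of them by at least 1, and 4 were lower, none by as much. Its median was 0.88 over cells and 0.60 between wells. Beyond Gadd45b, Cish, Socs1 and Il2ra, the members higher by at least 1 were the kinase Pim1 at 1.49, Socs2 at 1.30, Myc at 1.19 and Xbp1, a factor of the secretory stress response, at 1.07. Myc went the other way between the wells, at -1.42. Socs3, the feedback inhibitor of gp130 receptors such as that for IL-27, was at -0.00065 over cells and 0.40 between wells, and Mcl1, a survival factor, was at -0.44 over cells and 0.70 between wells. Of the receptors and kinases upstream, the IL-2 family and JAK-STAT list had 10 of 15 measured members higher, 5 of them by at least 1, and a median of 0.36 over cells and -0.03 between wells. Il7r and Il4ra, the receptor chains for IL-7 and IL-4, were higher over cells by 1.16 and 1.02, with -0.03 and 0.30 between wells. Ptpn2, a phosphatase that turns off JAK1 and JAK3, was at 1.54 over cells and 0.04 between wells. Stat3 and Jak1 were lower in both views, at -0.90 over cells and -0.43 between wells for Stat3 and -0.89 over cells and -0.39 between wells for Jak1.

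The IL-27 and IL-6 family signalling list was one of the few with more lower than higher members: 8 of 13 were lower over cells, and its median was -0.34 over cells and -0.03 between wells. Only Irf1, an interferon-induced factor, was higher by at least 1, and it is described with the interferon genes. Il6st, which encodes the shared chain gp130, was at -0.56 over cells and -1.16 between wells, and Tyk2, a JAK kinase of the IL-12 and interferon receptors, at -0.79 over cells and -0.85 between wells. Il12rb2, a receptor chain for IL-12, was detected in 8.22% against 16.5% of cells and differed by -0.995 over cells and -0.03 between wells. Most members differed by less than the size rule over cells, but so did most measured genes, with 5.56% higher and 0.954% lower by at least 1. Between wells 1 of the 13 members was higher by at least 1 and 2 were lower.

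**Figure D2:**
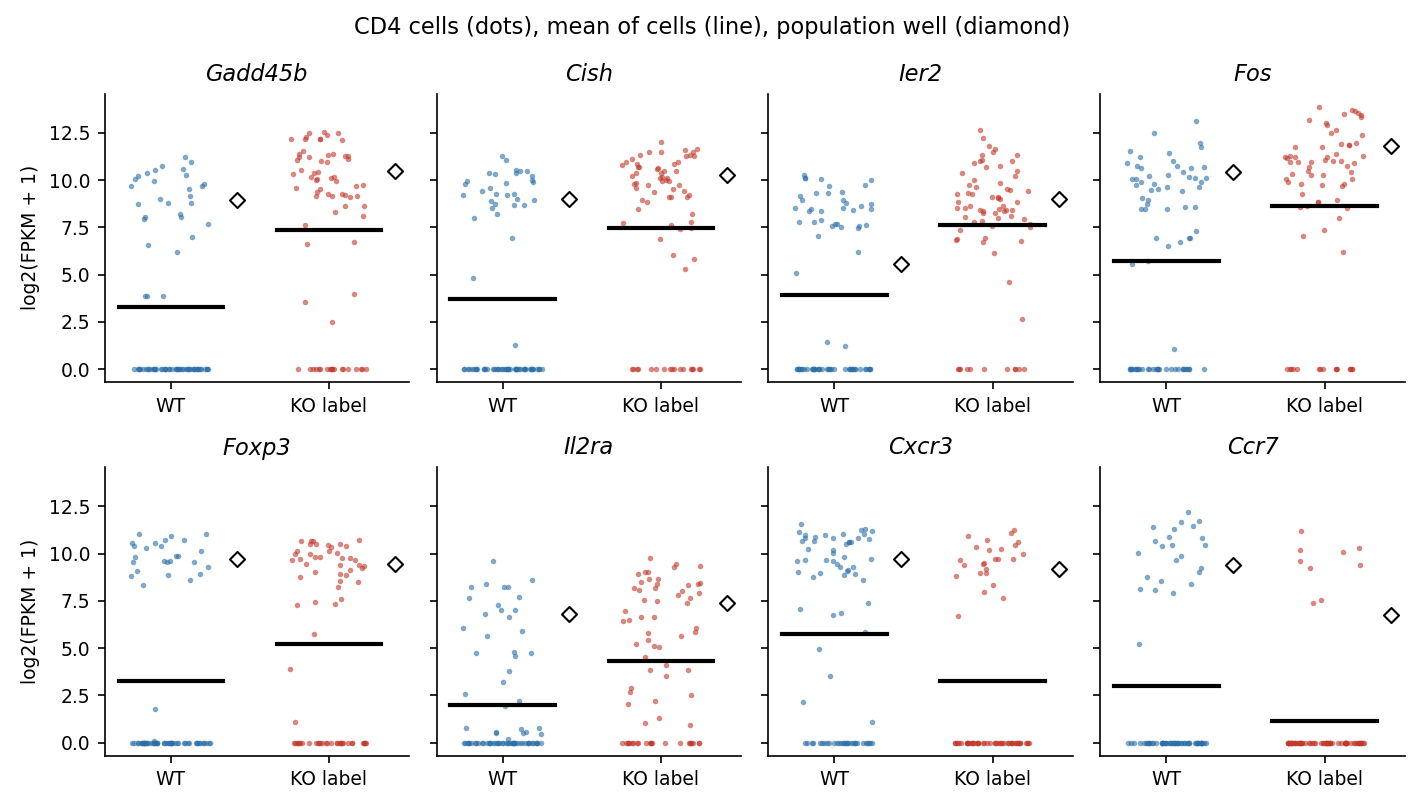
Level of 8 genes in every kept CD4 cell (vertical axis, log2(FPKM + 1)) on the WT plate (blue, 79 cells) and the KO-labelled plate (red, 73 cells). Dots are cells, with random sideways spread for visibility, black lines are means over cells and diamonds are the population wells. Gadd45b, Cish, Ier2 and Fos have fewer cells at 0 on the KO-labelled side and a higher diamond, Foxp3 and Il2ra have fewer cells at 0 with diamonds close together, and Cxcr3 and Ccr7 have more cells at 0.

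Immediate-early genes were higher across the cells and the wells alike. Ier2, a nuclear protein induced within minutes of stimulation (chr8:84661331-84662852, minus strand), ran from 0 through a median of 350.1 to 6445 FPKM in KO-labelled cells, and from 0 through 0 to 1232 FPKM in WT cells. KO-labelled cells held it in 84.9% (95% interval 74.6 to 92.2), WT cells in 48.1% (95% interval 36.7 to 59.6), and the wells held 504 against 45.9 FPKM. The difference of 3.71 over cells and 3.43 between wells made it the first of the genes higher in both views. Ier2 lies near the targeted gene Il27ra (chr8:84030294-84042589, minus strand). The part of this position in its difference was not tested. Fos, a subunit of the AP-1 factor, ran from 0 through a median of 1393 to 15239 FPKM in KO-labelled cells, and from 0 through 158.2 to 8960.1 FPKM in WT cells. Its shares were 79.5% against 60.8%, its wells held 3601 against 1365 FPKM, and it differed by 2.94 over cells and 1.40 between wells. Of the 20 measured immediate-early regulators outside AP-1, 18 were higher, 11 of them by at least 1, and the median was 1.25 over cells and 1.10 between wells, with 17 of 20 higher between wells. The members included Ppp1r15a, which restores translation after stress, at 2.68 over cells and 1.02 between wells. Cd69, the early activation antigen that retains cells in tissue, was at 2.62 over cells and 1.58 between wells. The orphan receptors Nr4a1 and Nr4a3 were at 1.67 over cells and 1.76 between wells and at 1.70 over cells and 1.76 between wells, and Rgs1, which dampens chemokine receptor signals, at 1.84 over cells and 0.64 between wells. The 2 lower members were Klf2 and Btg1, at -0.50 and -0.32, both linked to quiescence.

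Among AP-1 factors all 10 measured members were higher over cells, 4 by at least 1, with a median of 0.65 over cells and 0.91 between wells. Over cells Fosb and Fosl2 were higher by 1.39 and 1.05, Junb by 0.56 and Jun by 0.38, while Batf, Jund and Mafk were at 0.04, 0.04 and 0.02. Between wells Fosb and Fosl2 were at 1.84 and 0.68, Junb at 0.93 and Jun at 1.52. Batf, Jund and Mafk were at -0.13, 0.19 and 0.16 between wells. Atf3, a stress-induced member, was at 0.74 over cells, while the WT well listed it at 0 and the KO-labelled well at 362.1 FPKM. The phosphatase Dusp1, which turns off MAP kinases, ran from 0 through a median of 2174 to 17291 FPKM in KO-labelled cells, and from 0 through 418 to 10005 FPKM in WT cells, and differed by 2.99 over cells and 0.58 between wells. Of the 11 measured GADD45 and dual-specificity phosphatase genes 8 were higher over cells, but Dusp6 and Dusp2 were at -0.29 and -0.47. Between wells Dusp6 was higher at 0.51 and Dusp2 lower at -0.67. Counted within a cell, a median of 11 of the 20 immediate-early regulators was detected on the KO-labelled plate against 8 on the WT plate, with middle ranges of 8 to 13 and 5.5 to 9. The medians were 11 and 8 in cells matched on genes detected too. Cells with both Ier2 and Gadd45b made up 64.4% (52.3 to 75.3) of the KO-labelled and 20.3% (12.04 to 30.8) of the WT plate, and cells with both Ier2 and Cish 65.8% (53.7 to 76.5) and 20.3% (12.04 to 30.8). Ier2 was found in 85.7% of KO-labelled cells with Cish and 82.4% without, and in 50% and 46.8% of WT cells. With and without Gadd45b these shares were 87.04% and 78.9%, and 53.3% and 44.9%. The pair shares thus largely restate the shares of the single genes. Time from tissue to lysis is not given for either plate, and its part in these genes was not tested.

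**Figure D3:**
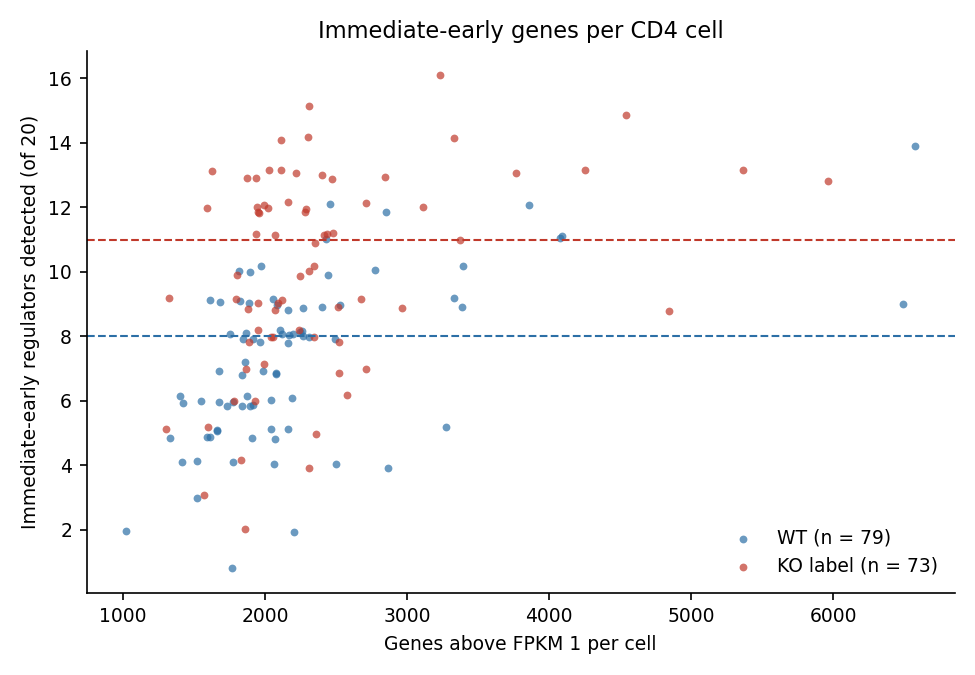
Number of the 20 measured immediate-early regulators detected in each CD4 cell (vertical axis, with slight random vertical spread) against the number of genes above 1 FPKM in that cell (horizontal axis). Red dots are 73 KO-labelled and blue dots 79 WT cells, and dashed lines are the medians of 11 and 8. Red cells lie above blue cells through most of the range of genes detected, with wide overlap.

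Promoters of 3 genes from these lists are shown because they carry the cAMP response element TGACGTCA, a palindrome bound by CREB and ATF factors. Each is the 250 bases before the RefSeq start in GRCm38.p6, 5′ to 3′ on the strand of the gene, with the element in capitals. They lie at chr17:26508473-26508722 (minus strand), chr1:134079156-134079405 (minus strand) and chr7:45526269-45526518 (minus strand).
Dusp1: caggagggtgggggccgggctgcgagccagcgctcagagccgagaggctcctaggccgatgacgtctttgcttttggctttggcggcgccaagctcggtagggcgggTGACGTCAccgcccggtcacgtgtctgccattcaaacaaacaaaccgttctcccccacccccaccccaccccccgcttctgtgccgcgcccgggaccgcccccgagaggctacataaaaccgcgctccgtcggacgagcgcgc
Btg2: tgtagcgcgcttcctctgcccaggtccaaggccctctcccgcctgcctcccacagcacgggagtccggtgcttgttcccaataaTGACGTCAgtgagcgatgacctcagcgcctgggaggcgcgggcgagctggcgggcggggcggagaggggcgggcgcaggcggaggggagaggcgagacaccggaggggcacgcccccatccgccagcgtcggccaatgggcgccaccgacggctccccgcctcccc
Ppp1r15a: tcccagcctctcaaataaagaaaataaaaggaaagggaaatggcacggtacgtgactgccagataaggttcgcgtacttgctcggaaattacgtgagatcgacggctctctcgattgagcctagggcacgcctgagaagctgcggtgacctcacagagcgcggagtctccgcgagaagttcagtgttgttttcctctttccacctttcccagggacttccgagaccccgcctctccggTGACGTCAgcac
The element began 12 bases before the start in Ppp1r15a and farther upstream in Dusp1 and in Btg2, an anti-proliferative gene. Btg2 differed by 1.43 over cells and 1.12 between wells. The element was found in 2 (Btg2 and Ppp1r15a) of the 24 AP-1 and immediate-early genes with a window, of 30 measured, and in 1.77% of all 27025 genes with a window, or 1.55% of 32851 windows. A match describes the letters only.

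Genes of regulatory T cells were higher over cells, but in the wells only 14 of 24 were higher, with a median of 0.11. Foxp3, their defining factor (chrX:7573644-7595245, plus strand), ran from 0 through a median of 170.1 to 1719 FPKM in KO-labelled cells, and from 0 through 0 to 2128 FPKM in WT cells. KO-labelled cells held it in 57.5% (95% interval 45.4 to 69.03), WT cells in 34.2% (95% interval 23.9 to 45.7), while the wells held 702 against 840.5 FPKM. The difference was 1.95 over cells and -0.26 between wells, and the wells did not share the order of the cells. Among cells with at least 2000 genes the shares were close, at 52.1% against 51.2%, and the difference was -0.28, and in matched cells they were 58.7% against 38.1%. Il2ra (chr2:11642807-11693193, plus strand) ran from 0 through a median of 32.5 to 866 FPKM in KO-labelled cells, and from 0 through 0 to 787 FPKM in WT cells. Its shares were 67.1% against 31.6%, its wells held 164.8 against 109.1 FPKM, and it differed by 2.34 over cells and 0.59 between wells. In cells with at least 2000 genes Il2ra kept a gap, at 68.8% against 48.8%. In the wells fewer cells of a type and less RNA per cell cannot be told apart.

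All 24 measured regulatory T cell genes were higher over cells, 14 of them by at least 1, against 59.3% and 5.56% of all measured genes. The median was 1.04 over cells and 0.11 between wells, and 14 of the 24 were higher between wells. Over the processing settings tried, some of which changed the cells used, the median without a split by Foxp3 ran from 0.66 to 1.48. The largest differences over cells after those named were Tnfrsf18 (GITR, a costimulatory receptor) at 2.54 over cells and -0.08 between wells and Capg, an actin-capping protein, at 2.44 over cells and 0.20 between wells. Areg, the tissue-repair growth factor of regulatory cells, was higher in both views, at 1.82 over cells and 2.15 between wells, with 26.03% against 10.1% of cells. Il1rl1, the IL-33 receptor, and Nrp1 also stood higher in both, at 1.42 over cells and 1.55 between wells and at 1.14 over cells and 1.60 between wells. Ikzf2 and Ikzf4, factors of the Ikaros family, were higher over cells by 0.88 and 0.20 but at -0.88 and -1.46 between wells. Il10 was at 0.31 over cells and -0.52 between wells. A median of 11 of the 24 genes was detected per KO-labelled cell and 6 per WT cell. This direction did not hold among cells with Foxp3 detected, as given next.

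The cells were also split by detection of Foxp3, a split chosen after seeing the data, which leaves 42 KO-labelled and 27 WT cells with Foxp3 and 31 and 52 without. Median genes detected were 2267.5 against 2404 in cells with Foxp3 and 2123 against 1891 in cells without. Among cells with Foxp3, 34.3% of all measured genes were higher on the KO-labelled side, with a median of -0.24, and among cells without it 68.6%, with a median of 0.28. Of the 23 measured regulatory T cell genes other than Foxp3, 6 were higher and 17 lower in cells with Foxp3, with a median of -0.57, and 17 were higher and 6 lower in cells without it, with a median of 0.58. Tnfrsf18 was at -0.50 with Foxp3 and 2.62 without, and Capg at -1.49 and 3.51. Tnfrsf9, Tnfrsf4 and Tigit were also lower in cells with Foxp3, at -2.03, -0.96 and -0.65. Areg, Icos and Il2ra were among the 6 that were higher there, at 1.53, 1.44 and 1.20. The regulatory T cell genes were thus higher over all kept cells and, as a group, lower within the cells with Foxp3. In cells with Foxp3 26.1% of these 23 genes were higher, beside 34.3% of all measured genes. In cells without it the shares were 73.9% and 68.6%, so in both classes the list leaned the way of all measured genes.

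The S100, galectin and annexin genes turned in the same way, with 4 of 17 higher and a median of -0.92 in cells with Foxp3, against 17 of 17 and 2.25 in cells without. Of the interferon-stimulated genes 13 of 35 (37.1%) were higher with Foxp3 and 25 of 35 (71.4%) without. The co-inhibitory receptors had 4 of 12 (33.3%) and 8 of 12 (66.7%). Both lists lay close to all measured genes, at 34.3% and 68.6%, so these counts set neither list apart. The immediate-early regulators kept their direction, with 17 of 20 higher and a median of 0.63 in cells with Foxp3, and 18 of 20 and 1.29 in cells without. The STAT5 and cytokine feedback targets kept it too, with 13 of 17 higher in both classes and medians of 0.72 and 1.16. No difference between the classes was tested. By share of cells, Gadd45b showed a wider gap without Foxp3 than with it. Among cells with no Foxp3 detected, Gadd45b was found in 64.5% (45.4 to 80.8) of 31 KO-labelled and 15.4% (6.88 to 28.1) of 52 WT cells. Among cells with Foxp3 the shares were 80.95% (65.9 to 91.4) of 42 and 81.5% (61.9 to 93.7) of 27. The mean level of Gadd45b was higher on the KO-labelled side in both classes, by 1.13 with Foxp3 and 4.73 without. Cish was found in 64.5% (45.4 to 80.8) against 26.9% (15.6 to 41.02) without Foxp3, and in 85.7% (71.5 to 94.6) against 66.7% (46.04 to 83.5) with it. Il2ra was found in 35.5% (19.2 to 54.6) against 5.77% (1.21 to 15.9) without Foxp3 and 90.5% (77.4 to 97.3) against 81.5% (61.9 to 93.7) with it, while its mean level differed by about as much in both, at 1.29 and 1.20. Cxcr3 was less often found on the KO-labelled side in both, at 33.3% (19.6 to 49.5) against 59.3% (38.8 to 77.6) with Foxp3 and 35.5% (19.2 to 54.6) against 63.5% (48.96 to 76.4) without. Ier2 differed by about as much in cells with and without Foxp3, at 3.78 and 4.07, whereas Gzmb differed by 2.27 with Foxp3 and -0.02 without. Undetected Foxp3 can be dropout, and these intervals cover counting error between cells only.

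**Figure D4:**
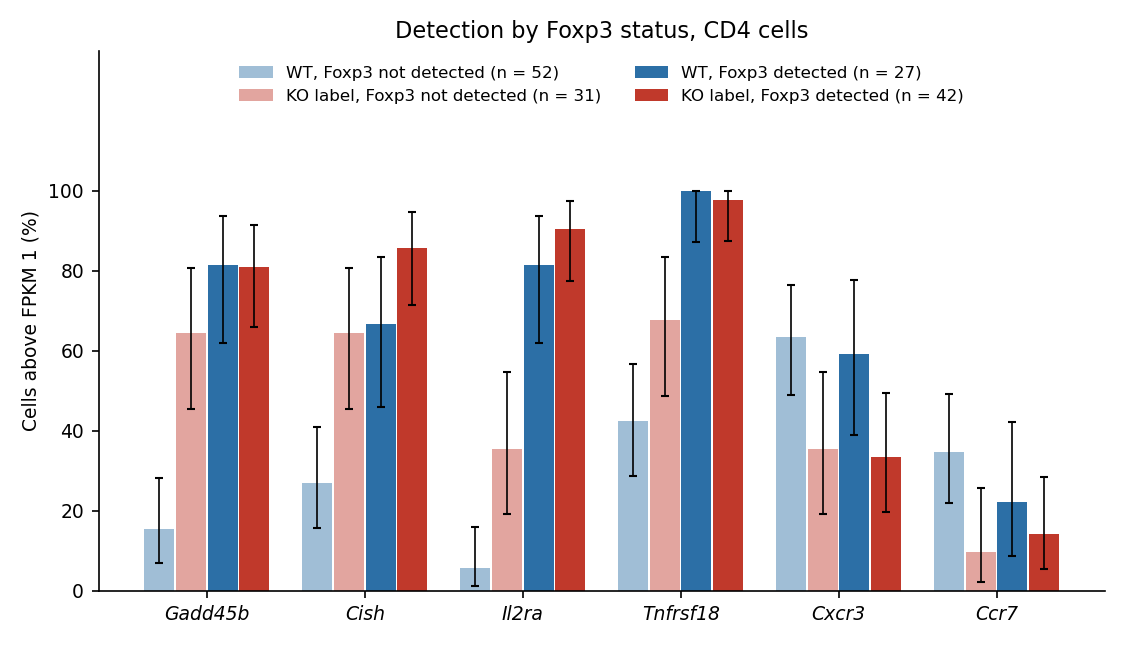
Share of CD4 cells in which each gene was above 1 FPKM (vertical axis, percent), split by plate and by detection of Foxp3, with exact 95% intervals as bars. Pale columns are cells without Foxp3 (52 WT, 31 KO-labelled) and dark columns cells with it (27 WT, 42 KO-labelled). Gadd45b stands at 64.5% against 15.4% in the pale columns and near 81% in both dark ones.

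Homing receptors were split. Cxcr3, the receptor for the interferon-induced chemokines CXCL9 and CXCL10 (chrX:101731535-101734269, minus strand), ran from 0 through a median of 0 to 2421 FPKM in KO-labelled cells, and from 0 through 391 to 3031 FPKM in WT cells. KO-labelled cells held it in 34.2% (95% interval 23.5 to 46.3), WT cells in 62.03% (95% interval 50.4 to 72.7), its wells held 574 against 832 FPKM, and it differed by -2.44 over cells and -0.54 between wells. It was the lowest of the 4687 genes compared over cells. Ccr7, which guides cells to lymph nodes (chr11:99144196-99155077, minus strand), ran from 0 through a median of 0 to 2359 FPKM in KO-labelled cells, and from 0 through 0 to 4744 FPKM in WT cells. It was detected in 12.3% (95% interval 5.80 to 22.1) against 30.4% (95% interval 20.5 to 41.8), its wells held 105.1 against 681 FPKM, and the difference was -1.83 over cells and -2.68 between wells. Cells with both receptors made up 4.11% (0.856 to 11.5) and 15.2% (8.10 to 25.03). Ccr2, the receptor for the monocyte chemokine CCL2, was higher, in 69.9% against 45.6% of cells at 1.78 over cells and 1.91 between wells. It was at 1.69 over cells after those with 3 or more myeloid markers were left out. Ccr2 is itself among those markers, so this value cannot show the part of myeloid cells in its difference. Ccr4 and Cxcr6 were higher over cells by 1.01 and 1.63, with 1.62 and 0.22 between wells. Cxcr4 was level over cells at 0.17 and lower between wells at -1.91. In all, 7 of 12 measured chemokine and egress receptors were higher, close to the 59.3% of all measured genes. Ccr2, Ccr4 and Cxcr6 were past 1, and Cxcr3, Ccr7 and S1pr1 were lower by at least 1.

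Genes of naive and recirculating cells leaned lower, with 11 of 17 measured members lower over cells and 13 of 17 between wells, and a median of -0.26 over cells and -0.24 between wells. Tcf7, the factor TCF1 of stem-like T cells, was detected in 23.3% against 41.8% of cells, its wells held 110.2 against 220.5 FPKM, and it differed by -1.75 over cells and -0.99 between wells. In cells with Foxp3 its difference was 0.80, and in cells without it -2.34. Ccr7 was at -0.35 and -2.83 in these classes, and of the whole list 5 of 17 were lower with Foxp3 and 12 of 17 without. The TCF1 partner Lef1 was at -0.83 over cells and -1.04 between wells, S1pr1, the receptor for exit from tissue, at -1.05 over cells and -0.24 between wells, and Txk, a TEC kinase, at -1.003 over cells and -0.94 between wells. The list was not uniform, and Il7r was higher over cells. Ccr7 and Tcf7 were found together in 5.48% (1.51 to 13.4) against 21.5% (13.1 to 32.2) of cells. Also lower in both views was Tsc22d3, the glucocorticoid-induced GILZ, at -1.21 over cells and -1.08 between wells. Txnip, an inhibitor of thioredoxin and glucose uptake, was at -0.95 over cells and -2.03 between wells, and Zfp36l2, which promotes mRNA decay, at -1.13 over cells and -1.01 between wells. Lower too were Gtf2i, a general transcription factor (17.8% against 41.8% of cells, wells 27.8 against 97.5 FPKM), and Sidt1, a membrane protein (16.4% against 35.4%, wells 29.4 against 79.6 FPKM). Ppm1j, a phosphatase, was at -1.41 over cells and -1.72 between wells, and Maf1, a repressor of RNA polymerase III, at -1.07 over cells and -1.27 between wells. The remaining members of the 15 lowest, Gm10052, Ehd3, Gramd3, Usp38 and Inpp1, lay between -1.71 and -0.88 over cells. Gm10052 is annotated as a processed pseudogene, so its reads may be shared with the parent gene and its value is uncertain.

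Effector genes went in both directions. Gzmb, the granzyme that triggers apoptosis in target cells, ran from 0 through a median of 0 to 14817 FPKM in KO-labelled cells, and from 0 through 0 to 21682 FPKM in WT cells. It was detected in 45.2% (95% interval 33.5 to 57.3) against 25.3% (95% interval 16.2 to 36.4) of cells, the wells held 4374 against 556 FPKM, and the difference was 2.35 over cells and 2.97 between wells. The highest single value was in a WT cell, so the ranges overlapped whole. Srgn, the granule proteoglycan that stores granzymes, was found in every KO-labelled cell, against 82.3% of WT cells, and differed by 2.84 over cells and 0.56 between wells. Nkg7, a granule membrane protein, was lower in both views, at -1.67 over cells and -0.62 between wells, and cells with both Nkg7 and Cxcr3 made up 12.3% (5.80 to 22.1) against 35.4% (25.001 to 47.01). Ctsd, a lysosomal protease, was at -1.39 over cells and 0.13 between wells. The 12 granule genes had a median of 0.17 over cells and 0.30 between wells, 8 higher and 4 lower. Among T helper 1 genes Tnf was higher, in 34.2% against 12.7% of cells at 1.85 over cells and 1.66 between wells. Ifng was at -0.24 over cells and 1.69 between wells, and its factor Tbx21 at -0.34 and 0.75. Ccl5, a chemokine of memory and effector cells, was at -0.97 over cells and 0.02 between wells.

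Of 12 measured inhibitory receptors 9 were higher over cells and 8 between wells, beside 59.3% and 48.1% of all measured genes, and 2 passed 1 over cells, Lilrb4 and Tigit, with a median of 0.64 over cells and 0.57 between wells. Lilrb4, an inhibitory immunoglobulin-like receptor, was detected in 43.8% against 18.99% of cells, and its wells held 534 against 57.3 FPKM. It differed by 2.39 over cells and 3.20 between wells, and its near-identical neighbour Gp49a by 2.05 over cells and 1.80 between wells, so reads may have been split between them and both values are uncertain. Both are also expressed by myeloid cells, and without cells carrying myeloid markers they differed by 2.15 and 1.58. Lag3, Havcr2 (TIM-3), Ctla4 and Cd274 (PD-L1) were higher in both views, at 0.70, 0.68, 0.65 and 0.64 over cells. Tigit and Pdcd1 (PD-1) were higher over cells by 1.46 and 0.40 but at -0.91 and -0.59 between wells. Btla was lower in both, at -0.24 over cells and -1.89 between wells. Of the TNF receptor superfamily 9 of 14 were lower, with Fas, the death receptor, at -1.49 over cells and -0.72 between wells, detected in 12.3% against 30.4% of cells. Tnfrsf9 (4-1BB) and Tnfrsf4 (OX40) were higher over cells, at 1.51 over cells and 0.01 between wells and at 1.20 over cells and 0.02 between wells.

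Interferon-stimulated genes leaned higher, 28 of 35 measured members over cells, 8 of them by at least 1, and 29 of 35 between wells. Of all measured genes 59.3%, 5.56% and 48.1% were so. The median of the list was 0.44 over cells and 0.73 between wells, but among cells with at least 2000 genes it was -0.09. Igtp, an interferon-inducible GTPase, ran from 0 through a median of 421 to 3875 FPKM in KO-labelled cells, and from 0 through 25.2 to 8982 FPKM in WT cells, and differed by 1.94 over cells and 0.95 between wells. Irf1 ran from 0 through a median of 577 to 6848 FPKM in KO-labelled cells, and from 0 through 296.02 to 5064 FPKM in WT cells, and differed by 1.42 over cells and 1.22 between wells. The GTPase Gbp2, in 45.2% against 29.1% of cells, was at 1.72 over cells and 2.25 between wells, and Usp18, which ends interferon receptor signals, in 30.1% against 6.33% at 1.84 over cells and 1.52 between wells. Without cells carrying myeloid markers these were 1.91 for Igtp, 0.94 for Irf1, 1.61 for Gbp2 and 1.42 for Usp18. Cxcl10, a ligand of CXCR3, was found in 21.9% against 6.33% of cells at 1.54 over cells and 2.21 between wells. Zbp1, a nucleic acid sensor, was lower over cells at -0.88 and higher between wells at 0.82. MHC class I and antigen processing genes were higher in 17 of 20 over cells and in 20 of 20 between wells, with a median of 0.58 over cells and 0.41 between wells. Tap1 and Tap2, the peptide transporter, were at 1.51 over cells and 0.41 between wells and at 1.13 over cells and 0.10 between wells, and B2m at 0.59 over cells and 0.43 between wells. The wells also differed in Lyz2 (2959 against 26.4 FPKM) and Cd74 (1150.4 against 139.5 FPKM), genes of antigen-presenting cells, and the part of such cells in the well values was not tested.

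Promoters of the 2 named interferon genes that carry TTCNNNGAA, the element bound by STAT dimers, are shown because IL-27 and interferons both signal through STAT factors. They are the 250 bases before the RefSeq start at chr11:53769764-53770013 (plus strand, 1 of 2 listed starts) and chr11:58199306-58199555 (plus strand), with the element in capitals.
Irf1: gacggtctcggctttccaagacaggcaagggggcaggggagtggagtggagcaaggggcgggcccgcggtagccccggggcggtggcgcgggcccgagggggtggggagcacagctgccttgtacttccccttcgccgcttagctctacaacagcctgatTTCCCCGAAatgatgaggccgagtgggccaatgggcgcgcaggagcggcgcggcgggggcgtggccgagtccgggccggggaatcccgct
Igtp: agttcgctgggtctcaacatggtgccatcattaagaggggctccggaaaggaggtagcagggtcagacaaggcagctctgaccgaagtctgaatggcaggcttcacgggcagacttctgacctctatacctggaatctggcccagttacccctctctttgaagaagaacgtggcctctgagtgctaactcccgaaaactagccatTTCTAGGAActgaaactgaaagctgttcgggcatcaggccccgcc
The element began 90 bases before the start in Irf1 and 45 in Igtp. It was found in 9 of the 24 interferon-stimulated genes with a window, of 35 measured, in 3 of 13 STAT5 and cytokine feedback targets, in 4 of 16 regulatory T cell genes, in 1 of the 24 AP-1 and immediate-early genes, and in 8.13% of all genes with a window, or 7.02% of windows. Of 2 further motifs searched on both strands, TGAGTCA, bound by AP-1, was found in 1 of 24 AP-1 and immediate-early genes, 5 of 24 interferon-stimulated genes and 5.16% of all genes, or 4.46% of windows. The CArG box was found in 1 of 24 AP-1 and immediate-early genes and in none of 24 interferon-stimulated genes, against 1.62% of all genes, or 1.47% of windows. Matches of the 4 motifs may overlap each other.

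NF-kB feedback genes were among those higher: 13 of 16 measured members over cells and 11 between wells, beside 59.3% and 48.1% of all measured genes. The list had a median of 0.51 over cells and 0.16 between wells. Nfkbid, an inhibitor that also steers regulatory T cell development, was detected in 60.3% against 34.2% of cells and differed by 2.30 over cells and 0.62 between wells. Nfkbia and Nfkbiz were at 2.03 over cells and 0.48 between wells and at 1.88 over cells and 1.21 between wells. Genes that control mRNA decay were divided, 6 higher and 7 lower of 13: Zfp36, which marks cytokine mRNAs for decay, was at 1.23 over cells and 1.08 between wells, while Zfp36l2 and Zc3h12d were lower, Zc3h12d at -1.15 over cells and -0.76 between wells. All 17 measured S100, galectin and annexin genes were higher over cells, 8 by at least 1, and 13 of 17 between wells, with a median of 0.94 over cells and 0.42 between wells. S100a6 was at 2.10 over cells and 0.78 between wells, Vim, the filament vimentin, at 1.99 over cells and 0.54 between wells, and S100a10 at 2.16 over cells and -0.08 between wells. Anxa1 and Lgals3 had larger differences in the wells, 2.93 and 2.16, than over cells, 0.89 and 1.09, and both are abundant in myeloid cells. Integrins and adhesion molecules were higher in 17 of 20 over cells, beside 59.3% of all measured genes. They were led by Itgb7, the gut-homing and CD103 partner chain, at 2.08 over cells and 0.75 between wells and Ly6a at 1.46 over cells and 1.25 between wells.

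The proximal T cell receptor list showed little difference, 12 of 19 higher and 7 lower, close to the 59.3% and 40.7% of all measured genes. Its median was 0.14 over cells and -0.04 between wells, and 1 member passed the size rule. That member was Plcg1, the phospholipase below the receptor, at -1.17 over cells and -0.44 between wells, and Themis was at -0.74 over cells and -1.42 between wells. Of the co-stimulatory CD28 and SLAM families 5 of 11 were higher, with Cd48 at 1.52 over cells and 0.61 between wells and Cd28 at 0.57 over cells and 0.47 between wells. The 5 measured T helper 2, 17 and follicular genes had 3 higher, led by the factor Maf at 1.10 over cells and 0.88 between wells, and Gata3 was at 0.39 over cells and -0.01 between wells.

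Several of the genes highest in both views belong to no list above. H60b, a stress ligand of the receptor NKG2D, was detected in 54.8% against 18.99% of cells, its wells held 75.7 against 6.67 FPKM, and it differed by 2.41 over cells and 3.32 between wells. It has close relatives in the H60 family, which makes its value uncertain. Zfp868, a zinc finger gene, was detected in 50.7% (95% interval 38.7 to 62.6) against 8.86% (95% interval 3.64 to 17.4) of cells, a gap of the same kind as on the CD8 plates of this series, where the shares were 57.5% and 15.3%. For H60b the CD8 shares were 53.8% and 5.56%. Cst3, a protease inhibitor abundant in myeloid cells, was detected in 58.9% against 35.4% at 2.17 over cells and 2.10 between wells, and was 2.002 over cells without those carrying myeloid markers. Cdkn1a, the cell cycle inhibitor p21, was detected in 31.5% against 10.1% at 1.80 over cells and 2.10 between wells, and was 1.47 without them. Podnl1, a matrix protein, was detected in 39.7% against 20.3% at 1.90 over cells and 2.01 between wells. Podnl1 (chr8:84125989-84132527, plus strand) also lies near Il27ra, and the part of this position in its difference was not tested. Zfp868 (chr8:69610857-69625548, minus strand) and Usp38 (chr8:80980733-81014928, minus strand) are farther away on the same chromosome, and the part of their positions was not tested either.

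The CD8 plates, whose titles carry the same genotype codes, were set beside these values without a test of the difference. The immediate-early regulators had medians of 0.91 over CD8 cells and 1.41 between CD8 wells, and the AP-1 factors 0.77 and 1.06, so both lists leaned higher on the KO-labelled side in both lineages. The STAT5 and cytokine feedback targets had 0.47 and 1.003. The regulatory T cell genes had 0.14 over CD8 cells and 0.28 between CD8 wells, and the S100, galectin and annexin genes -0.32 and -0.14. Foxp3 itself was found in 1.25% of KO-labelled CD8 cells. The naive, memory and egress genes had 1.11 over CD8 cells and 1.64 between CD8 wells, opposite in sign to the CD4 values.

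**Figure D5:**
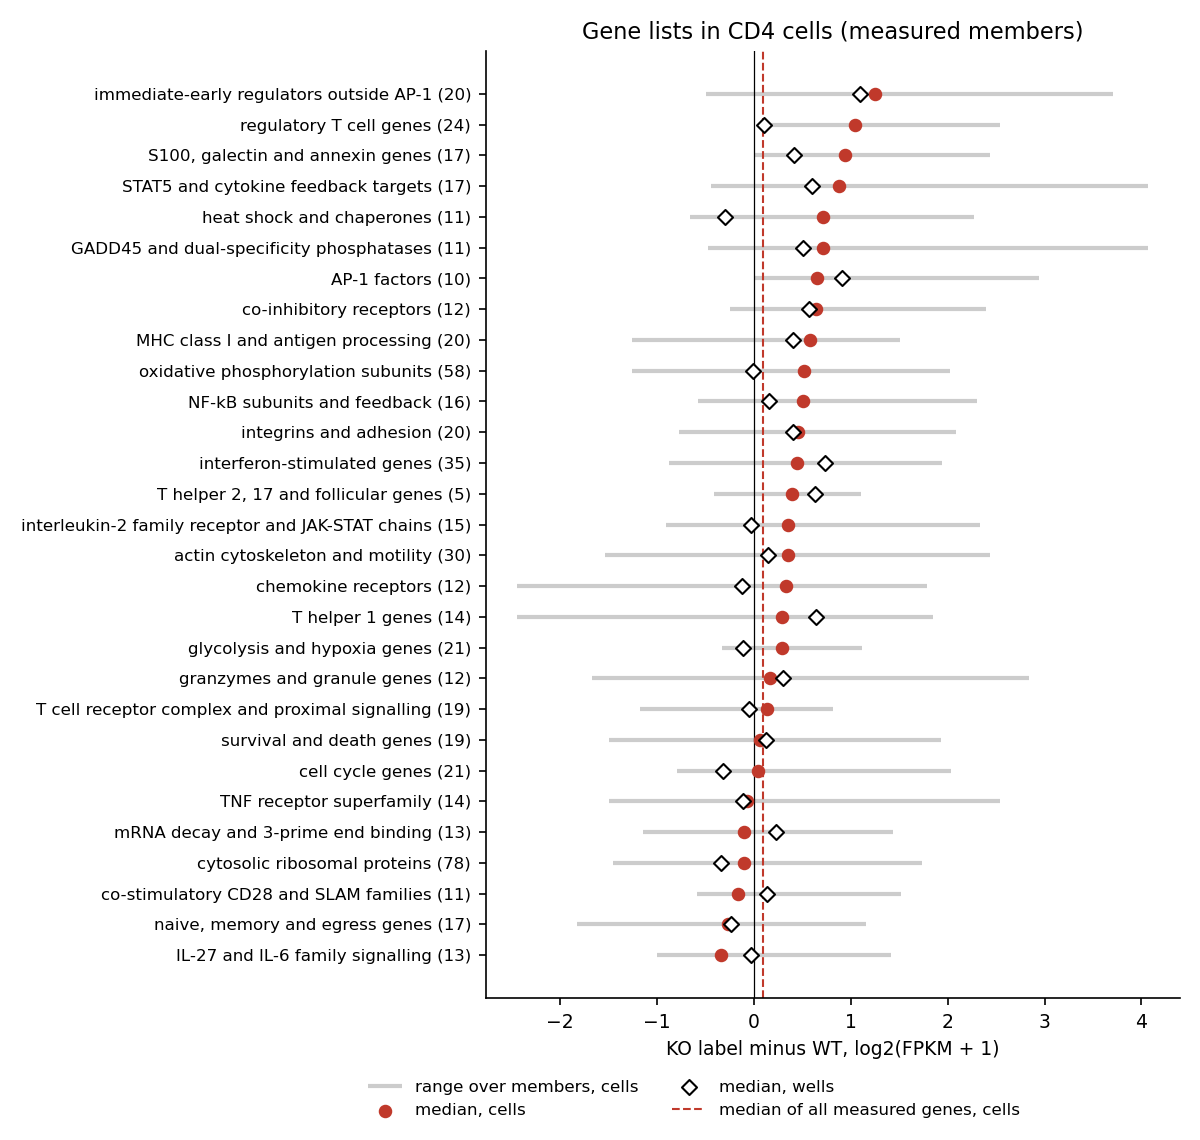
Difference between the KO-labelled and WT CD4 plates for 29 gene lists (horizontal axis, log2(FPKM + 1)), with the number of measured members in brackets. Red dots are medians over cells, diamonds are medians between wells, grey lines span all members over cells and the dashed line is the median of all measured genes. The lists shown have at least 5 measured members and are not cell type markers, and among them immediate-early regulators stand highest in both views at 1.25 and 1.10, while the regulatory T cell genes reach 1.04 over cells and 0.11 between wells.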

How the data were processed

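The deposited table holds FPKM values with a TMM scaling by the authors across libraries, per the labels. The submitters' processing notes name RSEM, Bowtie and mm10, and their versions are not given in the sources used here. The table has 23420 genes and 380 columns, each matched to a label, with 0 left over, and 0 pairs of libraries were identical. Depth was described by genes detected, and reads per library were not estimated.

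Cells needed 1000 genes above 1 FPKM, which left 152 CD4 cells among 304 kept of 376. Differences are of mean log2(FPKM + 1), a pseudocount of 1, KO label minus WT. Genes were compared when detected in at least 20% of the kept cells of 1 plate, and list members when detected in 10%. Shares carry exact Clopper-Pearson 95% intervals. A difference of 1 is a rule of size and not a test, and with 1 plate per group no p-value was computed. P-values were not taken from cells, which are not replicates.

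Named genes were the 15 highest and 15 lowest with the same sign in cells and wells, ranked by the smaller difference, up to 4 members of each of 41 lists with the largest difference, and the markers. Further list members named in the text were chosen after their values were seen, and some genes are not reported here. The members and the lists were chosen with earlier results of these data known. Alternatives covered the pseudocount, cell and gene filters, pairing on genes detected, scaling, centring and the log of mean FPKM. The calculation was tested on simulated data. Python 3.11.15, numpy 2.4.6, pandas 2.3.3, scipy 1.17.1 and matplotlib 3.10.9 were used. Gene positions are from GENCODE M21 on GRCm38, and promoters from RefSeq on GRCm38.p6, in which 24 of 30 AP-1 and immediate-early genes and 24 of 35 interferon-stimulated genes had a window.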

Additional observations from a re-analysis of the deposited data

Results flagged for a closer look

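Of 38 genes, the 30 that differed most in both views and 8 further markers, 14 lay one way over cells and between wells on the CD4 plates and the opposite way in both views on the CD8 plates. In 6 of them the difference over cells was at least 1 in both lineages. The difference between the lineages was not tested, since each rests on 1 plate per genotype label. Gzmb was higher on the KO-labelled CD4 plate, by 2.35 over cells and 2.97 between wells, and lower on the KO-labelled CD8 plate, at -3.66 and -1.06. The other five were lower in CD4 and higher in CD8. Ccr7 was at -1.83 over CD4 cells and -2.68 between CD4 wells, and at 1.91 and 1.81 in CD8. Tcf7 was at -1.75 and -0.99 in CD4, and at 3.35 and 1.65 in CD8. Sidt1 was at -1.33 and -1.40 in CD4, and at 2.07 and 1.45 in CD8. Tsc22d3 was at -1.21 and -1.08 in CD4, and at 1.83 and 1.00 in CD8. Gramd3 was at -1.71 and -0.92 in CD4, and at 2.17 and 1.47 in CD8. Cells above 4000 genes, which were 26 of 72 kept WT CD8 cells against 6 of 80 on the KO-labelled CD8 plate, were 4 of 79 and 5 of 73 on the CD4 plates.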

How the results depend on the processing

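The share of genes past the size rule depended most on the processing. The 8.75% of genes higher by at least 1 became 18.8% with a pseudocount of 0.1, 5.12% in cells paired on genes detected and 5.57% after centring. The 1.51% lower became 5.25%, 4.35% and 3.09% under the same settings, 6.49% with at least 2000 genes per cell, 2.45% with each cell rescaled to one sum and 4.82% from the log of mean FPKM. With no filter on genes the shares were 1.77% and 0.303%, since 23420 genes then form the denominator. The medians of the regulatory T cell genes (0.66 to 1.48) and of the immediate-early regulators (1.08 to 1.65) kept their direction under every setting run. But among cells with Foxp3 detected the first was -0.57 without Foxp3 itself and the second 0.63, beside -0.24 for all measured genes. With at least 2000 genes per cell, the direction turned for Foxp3 (-0.28), T cell receptor genes (-0.24), interferon-stimulated genes (-0.091), T cell markers (-0.054), granule genes (-0.046), actin genes (-0.046) and the CD28 and SLAM families (0.14). In paired cells it turned for glycolysis (-0.16), T cell receptor (-0.13), granule (-0.020) and actin genes (-0.0047). In cells with Cd4 and without Cd8a it turned for the CD28 and SLAM families (0.17) and ribosomal proteins (0.085). From the log of mean FPKM it turned for T cell receptor (-0.029) and T helper 2, 17 and follicular genes (-0.015), and after centring for T cell receptor genes (-0.027). The cause was not tested. Of 380 gene differences recomputed, 72 moved by over 0.5 without turning and 1 turned, and of 300 list medians 2 moved and 15 turned. Leaving out 9 KO-labelled and 5 WT cells with myeloid markers, an alternative chosen after seeing the data, gave 8.17% higher and 2.12% lower genes. No paired analysis was possible because each group is 1 plate and replicate numbers name wells. Detection per cell limits low genes, and no replicate plate bounds the spread between animals.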

Other observations

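Genes of basal metabolism and growth set the cells and the wells apart. Of 58 measured subunits of oxidative phosphorylation, 46 were higher over cells of the KO-labelled plate, 14 by at least 1, beside 59.3% and 5.56% of all measured genes. But 28 were higher and 30 lower between wells, and the median was 0.52 over cells and -0.01 between wells. Cox5a, a subunit of complex IV, was at 2.02 over cells and 0.38 between wells, and Uqcrc1, of complex III, at 1.81 over cells and -0.25 between wells. Cytosolic ribosomal proteins were lower in 76 of 78 between wells, with a median of -0.10 over cells and -0.34 between wells, while a median of 73 of the 78 was detected per cell on both plates. Rpl7a was at 1.74 over cells and -0.17 between wells and Rpl35 at -1.46 over cells and -0.76 between wells. Glycolysis and hypoxia genes were higher in 16 of 21 over cells and in 6 of 21 between wells, with a median of 0.29 over cells and -0.11 between wells, and Aldoa, a glycolytic enzyme, was at 1.11 over cells and -0.15 between wells. These lists show how far a direction over cells can differ from that between the wells of the same plates.

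Cell cycle genes showed no common direction over all kept cells, 12 higher and 9 lower of 21 measured, close to the 59.3% and 40.7% of all measured genes. Between wells 16 were lower, beside 51.3% of all measured genes, and the median was 0.05 over cells and -0.32 between wells. By Foxp3 the list was split: 0 of 21 were higher in cells with Foxp3, with a median of -0.96, and 17 of 21 in cells without, with 0.30. All measured genes had 34.3% and 68.6% higher in these classes. Mki67, a marker of cycling cells, was at -0.22 over cells and -0.84 between wells. The chaperones were higher in 9 of 11 over cells and 4 of 11 between wells, with a median of 0.72 over cells and -0.30 between wells. Among them Hspa5, the chaperone of the endoplasmic reticulum, was higher in both views, at 2.27 over cells and 0.54 between wells. Of 30 measured actin and motility genes 22 were higher over cells and 20 between wells, with a median of 0.35 over cells and 0.15 between wells, and Lasp1, an actin-binding adaptor, was lower at -1.54 over cells and -0.16 between wells. Survival and death genes were divided, 11 higher and 8 lower of 19, close to the 59.3% and 40.7% of all measured genes. Their list had a median of 0.06 over cells and 0.12 between wells. Casp8, the caspase below death receptors, was at 1.93 over cells and 0.05 between wells, and Pmaip1, the pro-death protein NOXA, at 1.36 over cells and 1.26 between wells. Tyr, a pigment enzyme of melanoma cells, was above 1 FPKM in 100% against 98.7% of cells at medians of 7.5 and 8.21 FPKM, and Cxcr2, a neutrophil receptor, in 95.9% against 91.1%, so detection alone did not mark a cell type for these genes.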
